A study of Mus musculus with 18 samples.

Results

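The glutathione peroxidases are enzymes that reduce hydrogen peroxide and lipid hydroperoxides, with glutathione as the usual electron donor. The 7 members described here (Gpx5, Gpx6, Gpx3, Gpx1, Gpx4, Gpx7 and Gpx8) were taken by gene symbol from the 53819 genes of the count tables, and all 7 passed the filter on low counts. RNA sequencing had been done on the caput epididymis, the stretch of the sperm-maturation duct nearest the testis, of C57BL/6J mice. The 18 libraries fell into 6 groups of 3. After cessation they were 6% ethanol (EtOH), 10% EtOH and control. At 10 weeks of treatment, called 10 weeks below, they were likewise 6% EtOH, 10% EtOH and control. The series title puts the cessation at a month; the sources used here do not state the route of ethanol, the length of treatment before cessation or the age of the animals. No label tells whether samples shared a litter, cage or day, so a p-value reflects only the scatter among these samples.

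Members of the family use either selenocysteine or cysteine at the catalytic site. In mice GPX1, GPX3 and GPX4 are selenoproteins, in which the codon UGA is read as selenocysteine, and GPX5, GPX6, GPX7 and GPX8 carry cysteine. GPX5 is secreted by the principal cells of the caput under androgen control and coats passing sperm, and mice that lack it accumulate oxidative damage in sperm DNA with age. GPX3 is the secreted enzyme of plasma, made mainly in the kidney and also by the epididymis. GPX1 acts in the cytosol and mitochondria, GPX4 reduces peroxides inside membranes and becomes a structural protein of the sperm midpiece, and GPX7 and GPX8 lie in the endoplasmic reticulum, where they take part in oxidative protein folding.

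The active-site stretch is shown because it separates the members that depend on selenium from those that do not. Each line is 39 bases of coding sequence from the GENCODE M21 transcripts, 5′ to 3′, with the active-site codon in capitals.
Gpx5: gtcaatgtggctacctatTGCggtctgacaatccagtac
Gpx6: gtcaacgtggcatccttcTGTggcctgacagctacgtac
Gpx7: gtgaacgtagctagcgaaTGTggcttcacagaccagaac
Gpx8: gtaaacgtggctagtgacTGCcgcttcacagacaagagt
Gpx3: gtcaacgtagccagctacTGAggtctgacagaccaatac
Gpx1: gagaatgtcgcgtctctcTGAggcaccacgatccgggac
Gpx4: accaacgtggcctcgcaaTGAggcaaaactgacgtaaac
Gpx5, Gpx6, Gpx7 and Gpx8 had TGC or TGT at this position and no TGA inside the coding sequence. Gpx3, Gpx1 and Gpx4 each had 1 internal TGA, and it lay at this position. In Gpx5, Gpx6 and Gpx3 the codon was number 73 of the coding sequence.

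Gpx5 dominated the family. It held between 96.3% and 99.0% of all reads assigned to the 7 members, and between 1.97% (95% Wilson interval 1.96% to 1.98%, counting error only) and 4.73% (4.72% to 4.74%) of all reads of a library. It was the most abundant gene in 15 of the 18 libraries; in the other 3, all after cessation, only the small nuclear RNA 7SK stood above it. Per kb of exon, the median level of Gpx5 over the 18 libraries was 24070 CPM per kb, where CPM is the read count relative to library size after scaling by the trimmed mean of M-values (TMM). On the same per-kb scale Gpx4 had 101, Gpx8 78.5, Gpx1 67.1, Gpx3 66.5, Gpx6 24.7 and Gpx7 7.40 CPM per kb. Gpx4 was thus the next most abundant member per kb, at a level that Gpx5 exceeded 238-fold. Gpx2, the gastrointestinal selenoenzyme of the family, is not among the members; it had 0 to 4 reads per library, 18 in all, and was not tested.

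The libraries held 10.7M to 17.2M assigned reads after cessation and 15.6M to 21.1M at 10 weeks. All 25 secretory genes used to check the caput label (lipocalins, cystatins, Adam7, Adam28, beta-defensins and others) were detected in every library, with summed levels of 30967 to 73173 CPM after cessation and 53137 to 99446 CPM at 10 weeks. Reads of the beta-defensins can be shared between near-identical copies. The table of 6% EtOH cessation replicate 1 carries another sample identifier than its label, and it is 1 of the 2 libraries lowest in Gpx5, with control cessation replicate 3. Without this pair edgeR called 466 genes between the times (2.47% of those tested), against 3335 with it. The members, the list counts and the correlations with Gpx5 that are read below are therefore also given without both. The pair was picked by its low Gpx5, and both are cessation libraries. Leaving it out thus lessens the Gpx5 fall by choice, and is no independent check on values that follow Gpx5. The identifier of 10% EtOH 10 weeks replicate 3 is of another kind than those of the other libraries; its counts differed from the other libraries of its group by a chi-square per degree of freedom of 60.4 and 57.2, against 14.3 between those.

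At 10 weeks, Gpx5 was higher in every ethanol library than in every control library, yet no difference passed the test. Gpx5 stood at 41430, 48325 and 49964 CPM in 6% EtOH libraries and at 46345, 49593 and 50756 CPM in 10% EtOH libraries, against 36064, 38323 and 39158 CPM in control libraries. The ethanol groups overlapped each other and neither overlapped the control group. The log2 fold change against control was 0.30 ± 0.35 (SE) for 6% EtOH (95% interval -0.43 to 1.02) and 0.37 ± 0.35 for 10% EtOH (-0.36 to 1.10), with adjusted p = 1 and 0.659 (edgeR's quasi-likelihood test over 18 libraries, Benjamini-Hochberg over 18618 genes). Each interval took in both no change and a doubling. In a fit of the 9 libraries of 10 weeks alone, the 10% EtOH value was 0.38 ± 0.12 and its adjusted p 0.0687 by the same test. The difference between doses at 10 weeks, 10% against 6% EtOH, was 0.07 ± 0.34 (interval -0.65 to 0.80).

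After cessation, Gpx5 spread so widely within groups that the 3 treatments overlapped throughout. It stood at 17445, 32014 and 44063 CPM in 6% EtOH libraries and at 29770, 36021 and 41518 CPM in 10% EtOH libraries, against 16810, 27177 and 42719 CPM in control libraries. The lowest library of the 6% EtOH group and that of the control group lay well below all others. The log2 fold change against control was 0.11 ± 0.34 for 6% EtOH and 0.31 ± 0.35 for 10% EtOH, with adjusted p = 1 and 0.859 (edgeR). Within groups, the SD of log2 CPM was 0.57 after cessation and 0.10 at 10 weeks; for comparison, the median gene had 0.38 after cessation and 0.25 at 10 weeks.

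**Figure D1:**
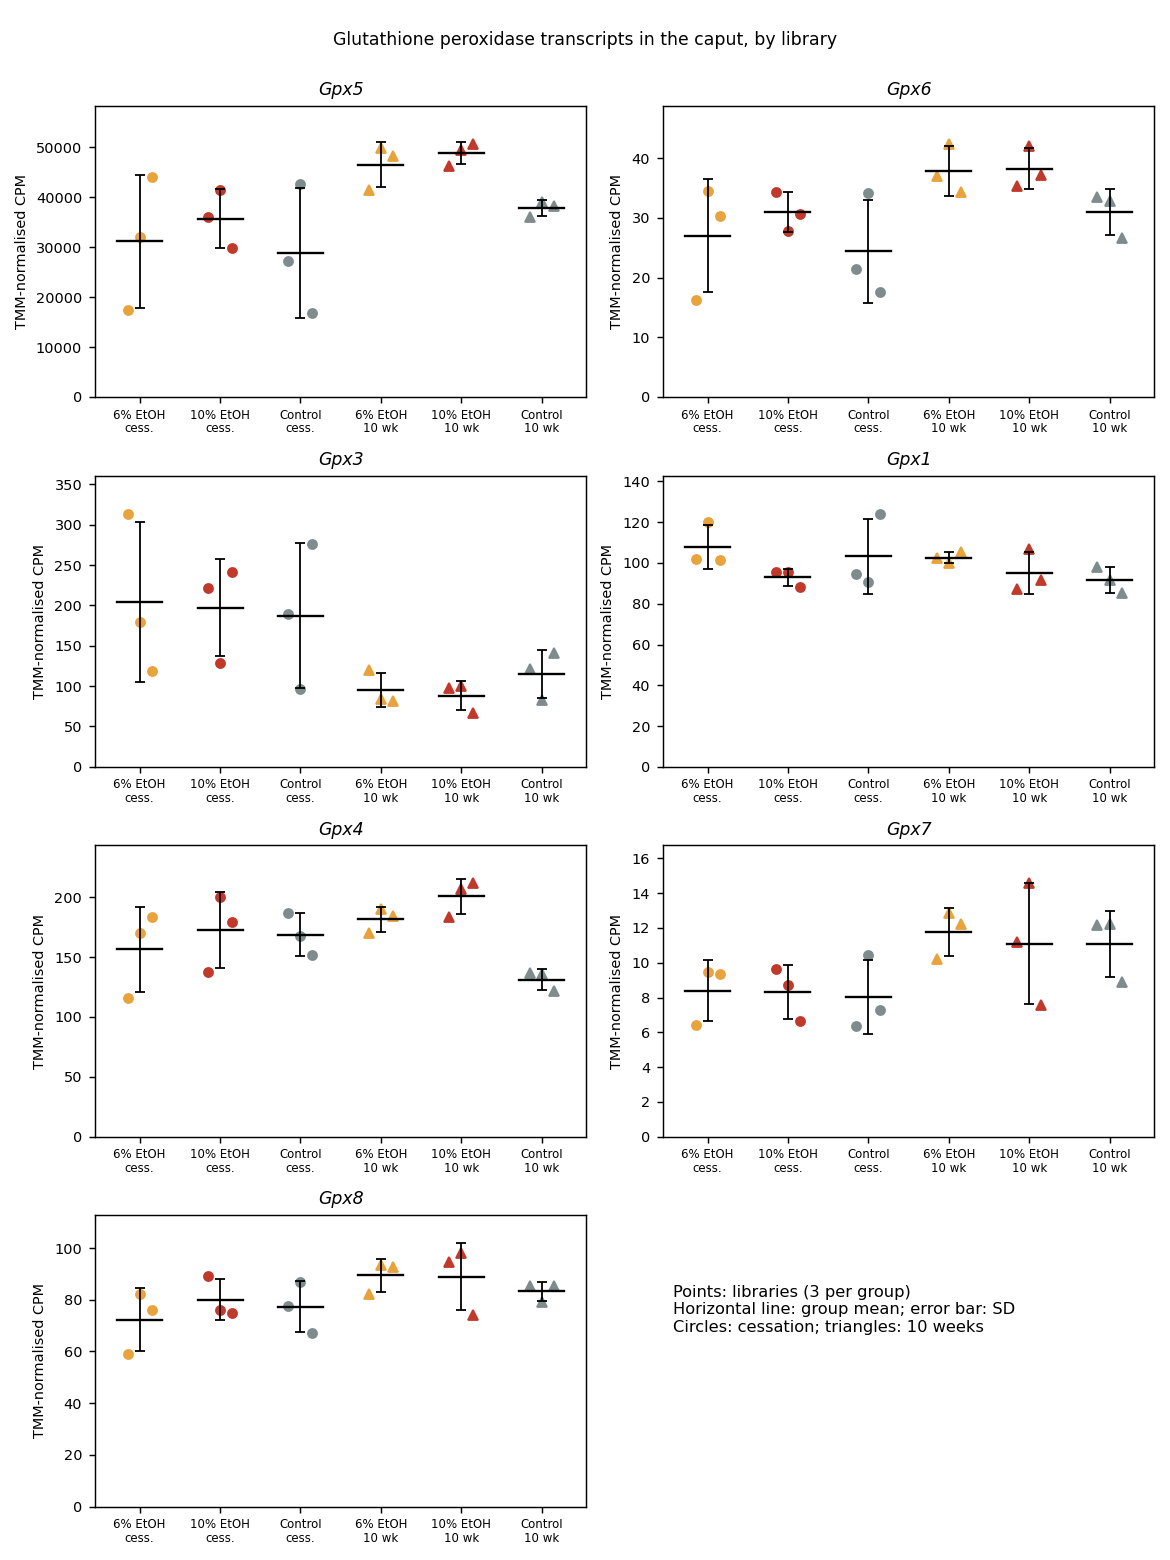
TMM-normalised CPM (y axes, from 0) of the 7 members in each of the 18 libraries, by treatment, with cessation libraries as circles and 10-week libraries as triangles; lines are group means and bars the SD of 3 libraries. Gpx5 spans 16810 to 44063 CPM after cessation and 36064 to 50756 CPM at 10 weeks, and the Gpx4 control libraries of 10 weeks lie below both ethanol groups of that time.

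Gpx6, the neighbour of Gpx5 on chromosome 13 and known in rodents from the olfactory epithelium, was a minor transcript here. At 10 weeks it had 34.2, 37.0 and 42.4 CPM in 6% EtOH libraries and 35.4, 37.2 and 42.1 CPM in 10% EtOH libraries, against 26.6, 32.8 and 33.5 CPM in control libraries. As with Gpx5, neither ethanol group overlapped the controls. The log2 fold changes were 0.29 ± 0.24 for 6% EtOH and 0.30 ± 0.24 for 10% EtOH, with adjusted p = 1 and 0.587 (edgeR). After cessation the groups overlapped: Gpx6 ranged over 16.3 to 34.4 CPM in 6% EtOH libraries and 27.7 to 34.4 CPM in 10% EtOH libraries, against 17.6 to 34.1 CPM in control libraries.

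For Gpx3 the fold changes at 10 weeks lay below 0, with overlapping groups. It had 81.7, 84.5 and 120 CPM in 6% EtOH libraries and 67.3, 97.1 and 100 CPM in 10% EtOH libraries, against 82.5, 122 and 141 CPM in control libraries. The log2 fold changes were -0.27 ± 0.38 for 6% EtOH and -0.38 ± 0.38 for 10% EtOH, with adjusted p = 1 and 0.679 (edgeR). After cessation they were 0.13 ± 0.38 and 0.08 ± 0.38, and neither passed.

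Gpx4 had the smallest p of the members against control at 10 weeks. It stood at 170, 184 and 190 CPM in 6% EtOH libraries and at 184, 207 and 211.5 CPM in 10% EtOH libraries, against 121, 136 and 137 CPM in control libraries. The controls lay below both ethanol groups without overlap. The log2 fold change was 0.47 ± 0.16 for 6% EtOH (95% interval 0.13 to 0.81) and 0.61 ± 0.16 for 10% EtOH (0.27 to 0.96), with adjusted p = 1 and 0.299 by edgeR's quasi-likelihood test, so neither was called. The call for 10% EtOH depended on the fit. It passed in DESeq2 (0.63, adjusted p = 0.0489), in edgeR with no filter on low counts (0.63, adjusted p = 0.0224) and in edgeR on the 9 libraries of 10 weeks (0.63 ± 0.09, adjusted p = 0.0135). Those fits called 0.64%, 2.02% and 6.17% of the genes they tested. Without any single control library, the fit of 9 libraries no longer called Gpx4 (log2 fold change 0.57 to 0.65, adjusted p from 0.0533 to 0.105, edgeR). Without control replicates 1, 2 and 3 it called 0, 14 and 0 of 17541, 17615 and 17600 genes. The Gpx4 call stayed without each 6% EtOH library (adjusted p from 0.0284 to 0.0331, edgeR, with 352 to 744 genes called). It also stayed without 10% EtOH replicate 1 or 2 (adjusted p = 0.0117 and 0.0173, edgeR, with 1264 and 1569 genes called). Without 10% EtOH replicate 3, the same fit called Gpx4 for 10% EtOH (0.57, adjusted p = 0.00170, edgeR), where it called 911 of 17460 genes. It then also called Gpx4 for 6% EtOH (0.46, adjusted p = 0.0115, edgeR), where it called 90 genes, 0.515% of those tested. With all 9 libraries the adjusted p for 6% EtOH was 0.193 (edgeR).

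After cessation Gpx4 showed no such separation. It had 116, 170 and 183 CPM in 6% EtOH libraries and 138, 179 and 200 CPM in 10% EtOH libraries, against 151, 168 and 187 CPM in control libraries. The log2 fold changes were -0.11 ± 0.16 for 6% EtOH and 0.03 ± 0.16 for 10% EtOH, with adjusted p = 1 and 0.974 (edgeR). The difference of the ethanol effect, cessation minus 10 weeks, was -0.58 ± 0.23 for either dose and did not pass (adjusted p = 0.645 for 10% EtOH and larger for 6% EtOH, edgeR). The 10-week controls, at 121 to 137 CPM, were themselves lower than the cessation controls, at 151 to 187 CPM.

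A processed copy of Gpx4, the pseudogene Gpx4-ps2, passed the filter with 39 to 141 reads per library. Its log2 fold change at 10 weeks was 0.65 ± 0.31 for 6% EtOH and 0.66 ± 0.31 for 10% EtOH, close to that of Gpx4 and not past the threshold. The sources used here do not state how reads that match both were counted, so Gpx4 counts are uncertain by such reads.

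Gpx1, Gpx7 and Gpx8 had smaller fold changes with ethanol at 10 weeks than Gpx4, none past the threshold. At 10 weeks Gpx1 had 100, 102 and 105 CPM in 6% EtOH libraries and 87.3, 91.6 and 107 CPM in 10% EtOH libraries, against 85.2, 91.5 and 97.9 CPM in control libraries. The 6% EtOH group lay just above the controls and the 10% EtOH group overlapped them; the log2 fold changes were 0.16 ± 0.13 and 0.06 ± 0.13. After cessation Gpx1 was lower in all 10% EtOH libraries (88.2 to 95.4 CPM) than in all 6% EtOH libraries (101 to 120 CPM), a log2 fold change of -0.21 ± 0.13 with adjusted p = 0.653 (edgeR). Gpx8 ranged over 82.3 to 93.6 CPM in 6% EtOH libraries and 74.0 to 98.01 CPM in 10% EtOH libraries, against 79.2 to 85.4 CPM in control libraries at 10 weeks, log2 fold changes of 0.10 ± 0.14 and 0.09 ± 0.14. Gpx7, at 7.55 to 14.6 CPM in all libraries of 10 weeks, had log2 fold changes of 0.08 ± 0.25 for 6% EtOH and -0.0015 ± 0.25 for 10% EtOH. After cessation the log2 fold changes of Gpx1, Gpx7 and Gpx8 lay between -0.15 and 0.07, none past the threshold.

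**Figure D2:**
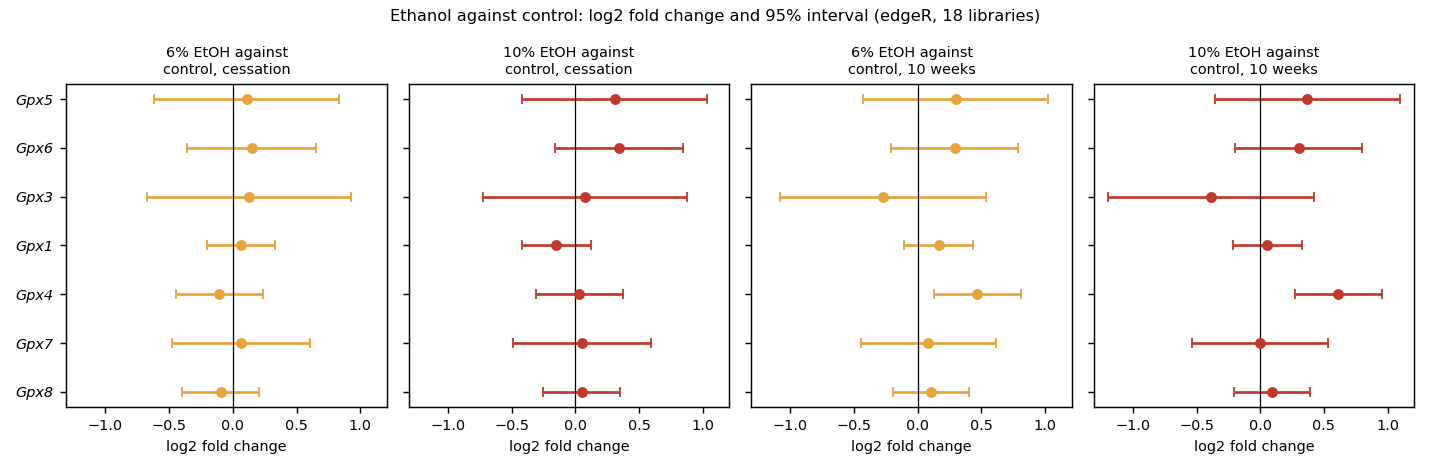
Log2 fold change of each member (x axis) in ethanol against control libraries, after cessation and at 10 weeks, with 95% intervals from the edgeR fit of 18 libraries. The interval of Gpx4 at 10 weeks lies above 0 for both doses (0.13 to 0.81 and 0.27 to 0.96); all other intervals include 0, and no member passed the adjusted threshold.

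In sum over the members, 0 of 7 were called in each of the 4 comparisons of ethanol with control, in both comparisons of the doses and in both differences of effect, where edgeR called 0% of the 18618 genes tested. At an unadjusted p under 0.05, edgeR gave 440 genes for 6% EtOH and 2501 for 10% EtOH at 10 weeks, and 301 for 6% EtOH and 1240 for 10% EtOH after cessation; 1 member, Gpx4, was among them at each dose at 10 weeks. DESeq2 called 0 genes for 6% EtOH and 73 for 10% EtOH at 10 weeks, and 1 for 6% EtOH and 0 for 10% EtOH after cessation. Between the doses, 527 genes at 10 weeks and 1462 after cessation were under 0.05 unadjusted in edgeR, with 0 and 1 called by DESeq2; for the differences of effect they were 561 for 6% EtOH and 1386 for 10% EtOH, with 0 and 2 called by DESeq2. At 10 weeks 4 members (Gpx5, Gpx6, Gpx1 and Gpx4) did not overlap between 6% EtOH and control, where 18.7% of all genes did not, and 3 members (Gpx5, Gpx6 and Gpx4) did not overlap between 10% EtOH and control, where 30.7% of all genes did not. After cessation no member was without overlap against control, where 4.01% of all genes were for 6% EtOH and 6.46% for 10% EtOH. Between the doses 0 members did not overlap at 10 weeks (13.6% of all genes) and 1, Gpx1, after cessation (8.59% of all genes). The median log2 fold change of the members at 10 weeks was 0.16 for 6% EtOH and 0.09 for 10% EtOH, beside -0.01 over all genes for each dose.

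Summed levels of other genes also separated the 10-week groups. The caput secretory genes summed to 67305 to 75695 CPM in 6% EtOH libraries and 77369 to 99446 CPM in 10% EtOH libraries, against 53137 to 62466 CPM in control libraries. The 10 fibroblast markers summed to 681 to 858 CPM in 6% EtOH libraries and 892 to 1016 CPM in 10% EtOH libraries, against 624 to 774 CPM in control libraries. The 12 macrophage markers summed to 268 to 293 CPM in 6% EtOH libraries and 275 to 425 CPM in 10% EtOH libraries, against 220 to 249 CPM in control libraries. The secretory and macrophage sums did not overlap the controls at either dose, and the fibroblast sums did not at 10% EtOH. Nor did 6% and 10% EtOH sums of other selenoproteins (1014 to 1076 and 1102 to 1190 CPM, controls 900 to 925 CPM). The same held for other peroxide removal (2694 to 2817 and 2823 to 2851, controls 2443 to 2632 CPM). It also held for endoplasmic reticulum folding genes (9691 to 10267 and 10310 to 11058, controls 9352 to 9659 CPM). Sums of selenium supply, peroxide sources and caput regulators overlapped the controls at both doses. Phospholipid peroxide control genes summed to 2403 to 2812 CPM in 6% EtOH and 2677 to 2711 CPM in control libraries. In 10% EtOH libraries they summed to 1990 to 2595 CPM, below the controls without overlap. The 8 smooth muscle markers summed to 1428 to 1977 CPM in 6% EtOH libraries and 1807 to 2102 CPM in 10% EtOH libraries, against 1346 to 1694 CPM in control libraries, apart from the controls at 10% EtOH. The 16 immediate early genes summed to 611 to 640 CPM in 6% EtOH libraries and 562 to 658 CPM in 10% EtOH libraries, against 652 to 747 CPM in control libraries, below the controls without overlap at 6% EtOH. Of 13 adipocyte markers 11 lay above 0 at 6% EtOH with a median log2 fold change of 1.28, and 9 at 10% EtOH with a median of 0.33; their sums were 116 to 165 CPM in 6% EtOH libraries and 105 to 118 CPM in 10% EtOH libraries, against 118 to 133 CPM in control libraries. Ciliated cell markers had medians of -0.47 at 6% EtOH and -0.69 at 10% EtOH, with 9 of 10 below 0 at each dose. Endothelial sums overlapped throughout, at 61.5 to 94.7 CPM in 6% EtOH libraries and 75.5 to 87.4 CPM in 10% EtOH libraries, against 47.9 to 91.8 CPM in control libraries. After cessation, 10% EtOH against control had 7 of 7 basal (median -0.94) and 8 of 8 endothelial markers (-0.99) below 0. At 6% EtOH those medians were -0.05 and 0.03. There, 10 of 10 ciliated (median 0.86) and 11 of 13 adipocyte markers (1.63) lay above 0, beside medians of -0.38 and -8.02e-04 at 10% EtOH. Other lists were also one-sided after cessation. At 10% EtOH 8 of 8 smooth muscle (-0.61), 5 of 5 red blood cell (-0.62) and 10 of 12 macrophage markers (-0.48) lay below 0. So did 9 of 10 fibroblast markers (-0.20) and 13 of 16 immediate early genes (-0.55), while 20 of 25 secretory genes lay above (0.18). At 6% EtOH 11 of 12 macrophage (-0.23) and 9 of 10 fibroblast markers (-0.16) lay below 0. Above 0 were 5 of 5 red blood cell markers (0.45) and 14 of 16 immediate early genes (0.25). No gene of these lists was called with ethanol by edgeR at either time, and their part in the Gpx4, Gpx5 and Gpx6 values was not tested.

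The only calls in the family by edgeR over 18 libraries lay between the cessation and the 10-week libraries, compared as the mean of the 3 treatments. Gpx3 rose and Gpx7 fell, and the other cysteine-codon members lay below 0 without passing. Ranked by p among all genes, Gpx3 stood within the first 2.50% and Gpx7 within the first 15.2%. Gpx4, not called with ethanol at 10 weeks, stood there within the first 0.274% for 6% EtOH and 0.387% for 10% EtOH. Time, collection and processing of the libraries cannot be told apart in this comparison. With 2 of 7 members called, the background is that edgeR called 17.9% of all genes tested here (1993 higher and 1342 lower).

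Gpx3 had 119, 180 and 314 CPM in 6% EtOH, 129, 221 and 242 CPM in 10% EtOH and 96.7, 190 and 276 CPM in control libraries after cessation, against the 10-week values given above, of which the highest was 141 CPM. Most cessation libraries lay above that value, and 3, the lowest of each treatment, lay within the 10-week range. The log2 fold change, cessation over 10 weeks, was 0.99 ± 0.22 (95% interval 0.52 to 1.46) with adjusted p = 0.0161 (edgeR). By treatment it was 1.10 ± 0.38 in 6% EtOH, 1.16 ± 0.38 in 10% EtOH and 0.70 ± 0.38 in control libraries. Gpx3 passed without each library in turn (adjusted p from 0.00179 to 0.0423, edgeR), but without both libraries lowest in Gpx5 it did not (0.69, adjusted p = 0.0658, edgeR). That pair also holds the highest Gpx3, so its removal could only lessen this rise.

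Gpx7 had the lowest counts of the 7 members, 92 to 237 reads per library. It ranged over 6.35 to 10.4 CPM after cessation and 7.55 to 14.6 CPM at 10 weeks, with overlap. The log2 fold change was -0.46 ± 0.15 with adjusted p = 0.0424 (edgeR), and lay between -0.49 and -0.41 in the 3 treatments. The call was lost in 11 of the 18 fits that left out a library (adjusted p up to 0.0938, edgeR), in limma voom (adjusted p = 0.0515), with library totals in place of TMM (0.0730) and without both libraries lowest in Gpx5 (0.128). Those 11 fits called 850 to 1727 of all genes between the times, against 3335 with all 18 libraries. Over the 18 fits the Gpx7 value lay between -0.54 and -0.38. The 7 fits that kept the Gpx7 call left out control 10 weeks replicate 3, 6% EtOH 10 weeks replicate 1, 10% EtOH 10 weeks replicate 3, control cessation replicate 2, 6% EtOH cessation replicates 2 and 3, or 10% EtOH cessation replicate 1.

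Gpx5 and Gpx6 lay lower after cessation in all 3 treatments, short of the threshold. For Gpx5 the log2 fold change was -0.47 ± 0.20 (95% interval -0.89 to -0.05) with adjusted p = 0.0980 (edgeR); it passed in DESeq2 (adjusted p = 0.0278, with 25.3% of all genes called) and in edgeR with no filter on low counts (0.0474, with 12.6% called). Without control cessation replicate 2 (-0.61, adjusted p = 0.0175, edgeR) or 6% EtOH cessation replicate 3 (-0.59, 0.0473), the cessation libraries of highest Gpx5 in their groups, it passed. Leaving out control cessation replicate 2 also raised the calls over all genes from 3335 to 5811. Without the 2 libraries lowest in Gpx5 the Gpx5 value was -0.30, with adjusted p = 0.167 (edgeR). As both are cessation libraries picked by their Gpx5, leaving them out could only make this fall smaller. For Gpx6 it was -0.38 ± 0.14 with adjusted p = 0.0620 (edgeR), and it too passed in DESeq2 (0.0407) and with no filter (0.00273). Leaving out control cessation replicate 2, 6% EtOH cessation replicate 2 or 10% EtOH cessation replicate 1 also brought Gpx6 past the threshold (adjusted p from 0.00672 to 0.0490, edgeR). Gpx8 had -0.19 ± 0.08 (adjusted p = 0.109, edgeR), while Gpx1 had 0.07 ± 0.07 and Gpx4 -0.02 ± 0.09.

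**Figure D3:**
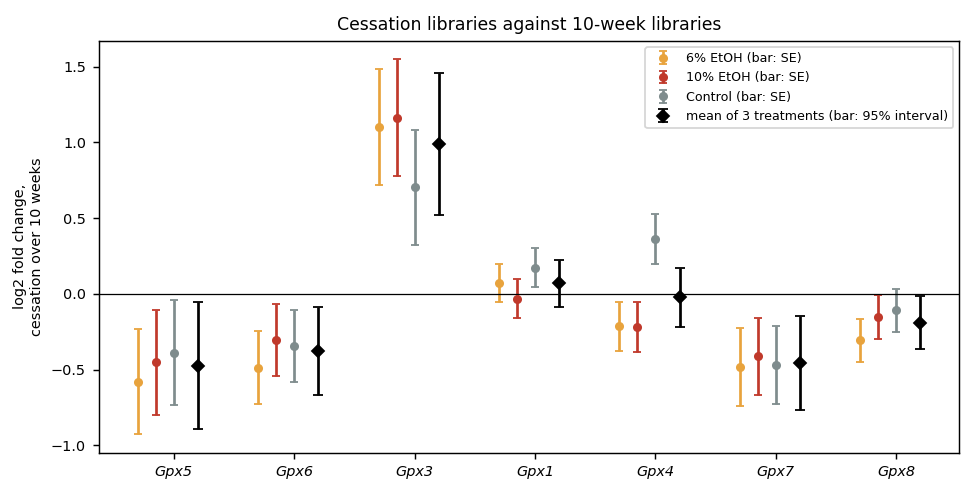
Log2 fold change of each member, cessation over 10 weeks (y axis), in 6% EtOH, 10% EtOH and control libraries (circles, bars SE) and as the mean of the 3 treatments (diamonds, bars 95% interval). Gpx3 lies above 0 in all 3 treatments (0.70 to 1.16), Gpx5, Gpx6, Gpx7 and Gpx8 lie below 0 in all 3, and Gpx4 lies above 0 only in the controls (0.36).

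The secreted members Gpx5 and Gpx3 ran opposite to each other from library to library. In CPM, Gpx5 exceeded Gpx3 by 55.6 to 442 times after cessation and by 271 to 755 times at 10 weeks. Across the 18 libraries Pearson's r of their log2 CPM was -0.88 and Spearman's rho -0.89; within cessation libraries r was -0.86 and rho -0.88, and within 10-week libraries both were -0.70 (9 libraries each). Without the 2 libraries lowest in Gpx5, r was -0.85 over 16 libraries and -0.80 over the 7 of cessation; with group means removed it was -0.89. These are descriptions: the libraries share their groups, their scaling and whatever differs in tissue composition between them. Gpx3 was not opposite to Gpx5 alone. Over the 18 libraries its r was -0.74 with Gpx6, -0.68 with Gpx7, -0.60 with Gpx8, -0.48 with Gpx4 and 0.30 with Gpx1. Without the 2 libraries lowest in Gpx5 these were -0.51, -0.56, -0.26, -0.27 and 0.02. With summed lists r was -0.84 for glutathione synthesis and recycling, -0.83 for caput secretory, 0.82 for immediate early and 0.79 for endothelial genes. Without those 2 libraries it was -0.73, -0.72, 0.71 and 0.62.

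Gpx6 followed Gpx5, with r = 0.89 and rho = 0.72 over the 18 libraries. Within cessation libraries r was 0.87 and rho 0.57, and within 10-week libraries r was 0.71 and rho 0.83. The relation rested in part on both libraries lowest in Gpx5, without which r was 0.68 over 16 libraries. Over the 7 of cessation r was then 0.45 and rho 0.11. It was not particular to Gpx5: Gpx6 also followed the summed genes of glutathione synthesis and recycling (r = 0.92 over 18 libraries). Gpx4 went with Gpx5 mainly at 10 weeks (r = 0.93 within those 9 libraries). Within the cessation libraries r was 0.61 and rho 0.38, and without the lowest pair r was 0.0047. Over all 18 libraries r with Gpx5 was 0.76 for Gpx8, 0.69 for Gpx7 and 0.54 for Gpx4. Without the lowest pair these were 0.44, 0.61 and 0.36. Within the 10-week libraries r was 0.32 for Gpx8 and 0.05 for Gpx7. Within the 7 cessation libraries left without the pair, it was 0.19 for Gpx8 and 0.79 for Gpx7. Gpx1 did not follow Gpx5 (r = -0.39 over 18 libraries and 0.05 without the lowest pair).

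**Figure D4:**
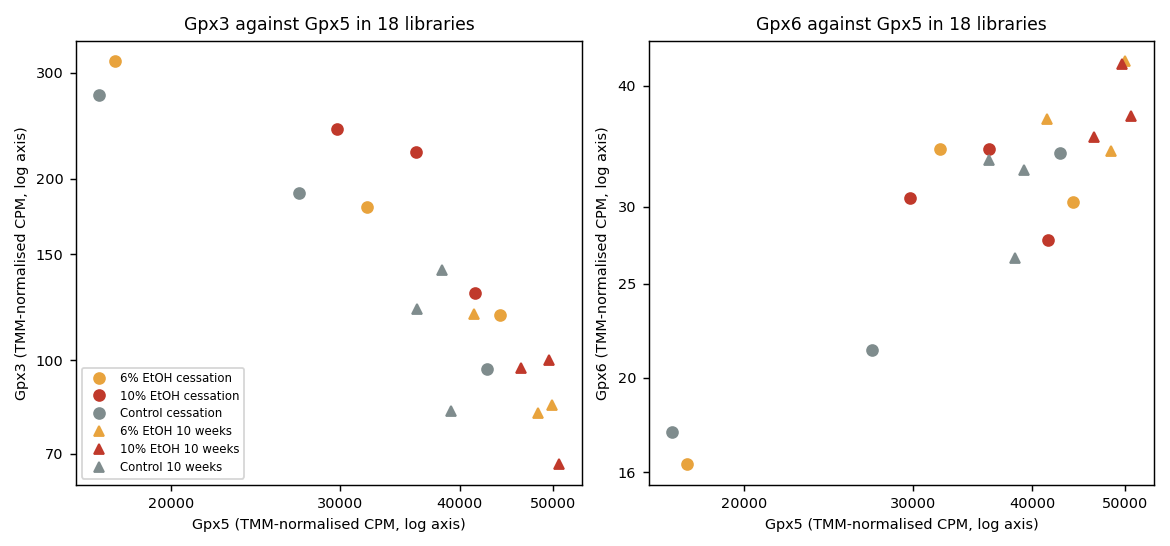
Gpx3 (left) and Gpx6 (right) against Gpx5 in the 18 libraries, in TMM-normalised CPM on log axes, coloured by treatment, with cessation as circles and 10 weeks as triangles. Gpx3 runs opposite to Gpx5 (r = -0.88) and Gpx6 runs with it (r = 0.89); the 2 libraries at the far left, 6% EtOH cessation replicate 1 and control cessation replicate 3, have the lowest Gpx5 and the highest Gpx3.

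The promoters of Gpx5 and Gpx6 are shown because these neighbouring genes varied together over the 18 libraries, though not as a pair apart from other genes. Each line is the 250 bases before the annotated start, in the direction of the gene, from RefSeq on GRCm38.p6; capitals mark matches to TGATAA, the core of a GATA-type site, and CCAAT, the CCAAT box, on either strand.
Gpx5, chr13:21292687-21292936, minus strand: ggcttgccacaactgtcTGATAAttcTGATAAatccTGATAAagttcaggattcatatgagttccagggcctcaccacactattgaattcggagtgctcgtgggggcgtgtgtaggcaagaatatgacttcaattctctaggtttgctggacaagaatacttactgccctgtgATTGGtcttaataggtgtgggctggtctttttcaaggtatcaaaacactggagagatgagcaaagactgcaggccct
Gpx6, chr13:21311953-21312202, plus strand: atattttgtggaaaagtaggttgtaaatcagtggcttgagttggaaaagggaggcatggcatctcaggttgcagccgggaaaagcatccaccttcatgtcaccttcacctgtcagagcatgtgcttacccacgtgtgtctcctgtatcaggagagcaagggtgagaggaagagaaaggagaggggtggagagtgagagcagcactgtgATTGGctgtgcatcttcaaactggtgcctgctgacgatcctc
The Gpx5 window held TGATAA 3 times, starting at -233, -224 and -214 from the start; 0.07% of 32851 mouse promoters of the same length held it 3 or more times and 7.94% at least 1 time. Both windows held 1 CCAAT match, read as ATTGG on the strand shown, at -77 in Gpx5 and -42 in Gpx6, as did 33.8% of all promoters. The longest run shared by the pair, CTGTGATTGG, contains that match and occurred in 0.368% of promoters. Neither window held AGAACA, the androgen receptor half-site (16.1% of promoters), or TATAAA, the TATA box (12.4%). The motifs were chosen after the sequences had been seen, no motif overlapped another, and a match is a description of letters only.

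By closeness of pattern over the 18 libraries, the genes most like Gpx5 among 13276 were Gpr45, an orphan receptor, Hacd2, an enzyme of fatty acid elongation, Slc1a1, a glutamate and cysteine transporter, Mia3, which loads large cargo for export from the endoplasmic reticulum, and Creg1, a secreted glycoprotein (r = 0.97 each). For Gpx3 the most alike were Asph, Anxa3, Cacna1d, ccdc198 and Suclg2 (r from 0.94 to 0.96). For Gpx6 they were Gjb1, Slc35f2, Crip1, H4c4 and Tmed3 (0.94 to 0.96), and for Gpx4 S100a1, Psmd13, Cycs, Cr1l and Uqcrq (0.91 to 0.95). Gpx7 was closest to Rrp8 (0.93), Gpx8 to Abhd12 (0.93) and Gpx1 to Rps19 (0.81). With so many genes compared over 18 libraries, the lowest pair included, the highest r is high by selection.

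Other genes that supply or use glutathione showed no called difference with ethanol. Of 26 tested genes of glutathione synthesis and recycling, 0 passed in any ethanol comparison by edgeR. The median log2 fold change at 10 weeks was 0.02 for either dose. The summed level of the list at 10 weeks was 3343 to 3635.5 CPM in 6% EtOH and 3096 to 3411 CPM in control libraries. In 10% EtOH libraries it was 3472 to 3541 CPM, above the controls without overlap. The smallest p for 10% EtOH at 10 weeks belonged to Glrx3, a glutaredoxin (0.52 ± 0.21, adjusted p = 0.311, edgeR), and Idh2, which makes NADPH in mitochondria (-0.42 ± 0.18, adjusted p = 0.331, edgeR). Among 17 tested genes of other peroxide removal, which hold the peroxiredoxins, catalase and superoxide dismutases, 0 passed; Prdx1 stood first (0.60 ± 0.17, adjusted p = 0.299, edgeR). Of 23 tested genes of phospholipid peroxide control, the setting in which GPX4 acts, 0 passed. For 10% EtOH at 10 weeks, 13 lay above 0 and 10 below (median 0.07), though the sum of the list lay below the controls. There Acsl3, which activates fatty acids, had 0.57 ± 0.14 and Tfrc, the transferrin receptor, 0.90 ± 0.25.

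Between cessation and 10 weeks, over all 18 libraries, 3 of the 26 glutathione genes rose and 2 fell; without both libraries lowest in Gpx5, 0 of 25 passed by edgeR, and all 5 kept their direction. Those higher were Chac1 (0.98 ± 0.28), which degrades glutathione, Dpep1 (0.74 ± 0.20), a dipeptidase that acts on its breakdown products, and Oplah (0.59 ± 0.19), which recovers glutamate from oxoproline. Those lower were Slc3a2 (-0.44 ± 0.12), a subunit of the cystine transporter, and Lap3 (-0.43 ± 0.15), a peptidase. Of 17 genes of peroxide removal, Srxn1 (0.41 ± 0.11), which restores oxidised peroxiredoxins, and Sod3 (1.18 ± 0.33), the extracellular superoxide dismutase, rose and 0 fell; without the pair 0 passed. Of 17 tested peroxide sources 5 rose and 3 fell, among them Maob (1.29 ± 0.27), Xdh (0.82 ± 0.18), Nox4 (1.06 ± 0.28) and Maoa (0.39 ± 0.10) higher; without the pair 0 rose and 1 fell.

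Of 18 tested folding genes of the endoplasmic reticulum, which work beside GPX7 and GPX8, 3 fell and 0 rose: Txndc5 (-0.46 ± 0.10), Pdia6 (-0.33 ± 0.11) and P4hb (-0.31 ± 0.10), all protein disulfide isomerases, with a list median of -0.24 beside 0.05 over all genes. Without the pair Txndc5 remained past the threshold (-0.38, adjusted p = 0.0284, edgeR) and the median was -0.18, beside 0.02 over all genes. Of 23 genes of phospholipid peroxide control 2 rose and 3 fell: Hmox1 (1.90 ± 0.38), heme oxygenase, and Acsl4 (0.40 ± 0.08) were higher, and Lpcat3 (-0.50 ± 0.11), Cisd1 (-0.42 ± 0.10) and Slc11a2 (-0.27 ± 0.08) were lower. Without the pair Acsl4, Lpcat3 and Cisd1 remained past the threshold and Hmox1 did not (1.46, adjusted p = 0.0509, edgeR).

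The genes that decode and supply selenium showed few calls. Of 16 genes of selenoprotein synthesis and selenium supply, Sephs1 (-0.42 ± 0.10), a relative of the selenophosphate synthetase, fell between cessation and 10 weeks and 0 rose. Of 20 other selenoproteins, Selenow rose (0.69 ± 0.21) and 0 fell. Neither passed without the pair (adjusted p = 0.0510 for Sephs1 and 0.160 for Selenow, edgeR). With ethanol 0 of either list passed. Lrp8, a receptor for selenoprotein P, had -0.64 ± 0.19 for 10% EtOH at 10 weeks (adjusted p = 0.299, edgeR). The selenium carrier Selenop had 0.38 ± 0.16 for 6% EtOH and 0.49 ± 0.16 for 10% EtOH at 10 weeks, and Selenof of the endoplasmic reticulum 0.44 ± 0.21 and 0.63 ± 0.21. The summed level of the other selenoproteins followed Gpx4 over the 18 libraries (r = 0.85, and 0.80 with group means removed), and hardly followed Gpx5 (r = 0.15).

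The caput secretory genes, a list that does not hold Gpx5, had medians on the same side of 0 as Gpx5 at 10 weeks and between the times, but not for 6% EtOH after cessation, where the median was -0.15 (19 of 25 below 0) and Gpx5 had 0.11. At 10 weeks 0 of 25 passed against control; the list median was 0.31 for 6% EtOH and 0.58 for 10% EtOH, with the smallest p for 10% EtOH at Defb41, a beta-defensin (2.0001 ± 0.63), and Crisp1, a sperm-coating protein (1.29 ± 0.43). Between cessation and 10 weeks 8 fell and 0 rose, with a median of -0.34; those of smallest p were Wfdc10 (-0.60 ± 0.14), Teddm1a (-0.65 ± 0.18), Lcn6 (-0.61 ± 0.17), Rnase10 (-0.85 ± 0.25) and Ros1 (-0.48 ± 0.15). Without the pair 2 of the 8, Wfdc10 and Rnase10, remained past the threshold, and the median was -0.18. The summed level of the list followed Gpx5 with r = 0.93 and rho = 0.91 over the 18 libraries, and with r = 0.76 and rho = 0.87 without the pair. Of 18 tested regulators of the caput, Bach1 and Nfe2l2 (0.48 ± 0.10 and 0.35 ± 0.11), which act on antioxidant genes, rose after cessation, and 5 fell, among them Srd5a1 and Srd5a2 (-0.74 ± 0.20 and -0.33 ± 0.10), which make dihydrotestosterone, and Gata3 (-0.26 ± 0.08). With 10% EtOH at 10 weeks 0 of these regulators passed, the smallest p being those of Elf5 (-0.82 ± 0.24) and Pax2 (-0.95 ± 0.32), both transcription factors (adjusted p = 0.299 each, edgeR). Of the 7 regulators called between the times, 3 remained without the pair, among them Bach1 (0.34, adjusted p = 0.0288, edgeR) and Srd5a1 (-0.54, adjusted p = 0.0284, edgeR).

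Markers of other cells moved with the comparison of times as well. In bulk tissue, fewer cells of a type and less RNA per cell cannot be told apart. Of 8 endothelial markers 6 rose and 0 fell, with a median of 1.10 and summed levels of 56.3 to 332 CPM after cessation and 47.9 to 94.7 CPM at 10 weeks. Of 8 smooth muscle markers 7 rose (median 1.26), while their summed level, 1261 to 2099 CPM after cessation and 1346 to 2102 CPM at 10 weeks, overlapped throughout; the eighth, Actg2, had -0.59 ± 0.21 (adjusted p = 0.0578, edgeR). Of 16 immediate early genes, which respond to handling and stress within minutes, 15 rose and 1 fell (median 2.22), with summed levels of 962 to 2806 CPM after cessation and 562 to 747 CPM at 10 weeks. The immediate early sums did not overlap between the times.

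For the other lists in the same comparison, 5 of 10 fibroblast markers rose and 1 fell, with sums of 683 to 1302 CPM after cessation and 624 to 1016 CPM at 10 weeks. Of 12 macrophage markers 3 rose, with 256 to 603 CPM after cessation and 220 to 425 CPM at 10 weeks. Of 10 germ cell markers 6 rose, with 156 to 368 CPM after cessation and 115 to 221 CPM at 10 weeks. Of 10 markers of the ciliated efferent duct 4 rose, with 36.0 to 327 CPM after cessation and 37.0 to 106 CPM at 10 weeks. All these sums overlapped between the times. Of 5 tested red blood cell markers 2 rose, with 29.8 to 167 CPM after cessation and 15.7 to 140 CPM at 10 weeks. Of 7 basal cell markers 1 rose, with 489 to 960 CPM after cessation and 504 to 581 CPM at 10 weeks. Of 7 tested clear and narrow cell markers 1 rose, with 314 to 452 CPM after cessation and 376 to 428 CPM at 10 weeks. Of 13 tested adipocyte markers 0 passed, with 85.4 to 186 CPM after cessation and 105 to 165 CPM at 10 weeks. The adipocyte genes Adipoq and Plin1 had no read in 3 and 4 of the 18 libraries. Without both libraries lowest in Gpx5, 14 of the 16 immediate early genes remained past the threshold, as did 1 macrophage, 1 smooth muscle and 1 clear and narrow cell marker; 0 endothelial, fibroblast, germ cell, ciliated or red blood cell markers passed, and 1 basal marker fell and 0 rose. The endothelial median was then 0.64, the smooth muscle median 0.91 and the immediate early median 1.90.

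Across the 18 libraries Gpx5 ran opposite to the summed endothelial list (r = -0.86, rho -0.64), the ciliated list (r = -0.80, rho -0.67) and the immediate early list (r = -0.80, rho -0.75). For the basal list r was -0.86 but rho only -0.38. Without the lowest pair r was -0.62 for the endothelial, -0.50 for the ciliated, -0.61 for the immediate early and -0.53 for the basal list, where rho was -0.11. Gpx5 did not follow the adipocyte list (r = -0.02). The part of these cells in the Gpx3, Gpx5 and Gpx7 values was not tested.

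**Figure D5:**
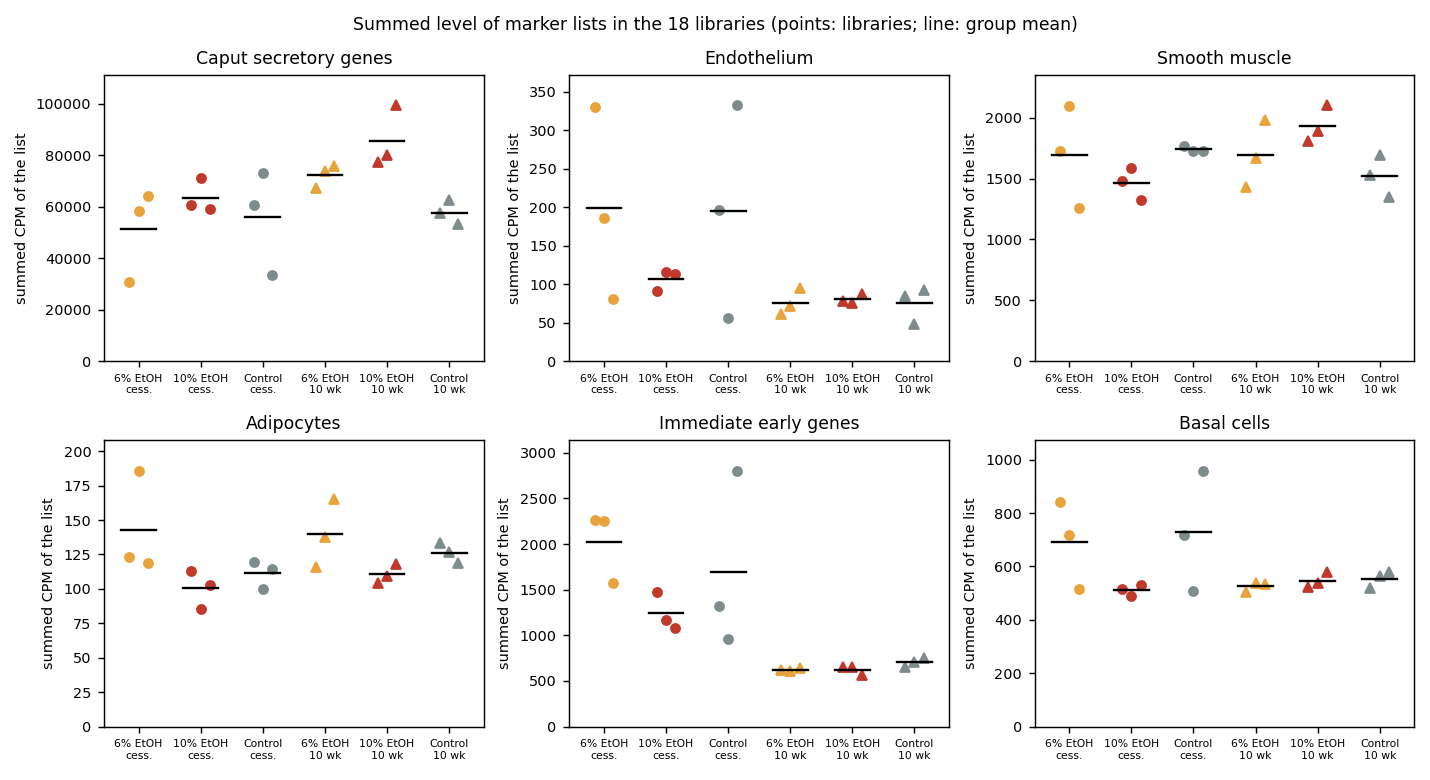
Summed TMM-normalised CPM (y axes, from 0) of 6 gene lists in the 18 libraries, by group, with cessation as circles and 10 weeks as triangles and group means as lines. The caput secretory sum is lowest, and the endothelial and immediate early sums are high, in the libraries of lowest Gpx5; immediate early sums lie at 962 to 2806 CPM after cessation, above the 562 to 747 CPM at 10 weeks.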

How the data were processed

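The authors deposited raw gene counts, not normalised, in a separate table for each library. Per the submitters' processing notes they were made with Trimmomatic, STAR and featureCounts on GRCm39 (mm39); the sources used here do not state versions, the strand setting or the handling of multiply matching reads. Total RNA was extracted with an RNeasy kit, per the labels. Replicate pairs within a group differed by a chi-square per degree of freedom of at least 5.79, more than counting error alone. This cannot tell whether separate preparations came from the same animal, and pairs across groups were not compared. Groups came from the labels, and replicate numbers follow the order of deposit.

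Genes were filtered with filterByExpr (minimum count 10, minimum total 15), which kept 18618 genes and at least 99.7% of each library's counts. Counts were scaled by TMM (factors 0.914 to 1.20) and tested two-sided with edgeR 4.0.16 (R 4.3.3), robust quasi-likelihood over all 18 libraries with 1 term per group, at a Benjamini-Hochberg adjusted p under 0.05. The common biological coefficient of variation was 25.4%. Levels are TMM-normalised CPM, and correlations used log2 CPM with a prior count of 2. Alternatives were DESeq2 1.42.0, limma voom (3.58.1), other scalings and filters, fits of 1 time, leaving out each library, and, added after the data were seen, removing length and GC trends and leaving out the 2 libraries lowest in Gpx5.

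Members and lists were chosen with earlier results of these data known. From each list, genes past the threshold were named up to 5 by smallest p, and otherwise up to 2 of smallest p, with 1 gene that the rule named not reported here; the genes most like each member were those of highest r, from genes of mean log2 CPM of at least 1. Exon lengths and coding sequences came from GENCODE M21 and promoters from RefSeq, both on GRCm38, matched by symbol for all 7 members; no GRCm39 annotation was used. In that annotation Gpx8 overlaps Cdc20b on the other strand, with 0 exonic bases shared.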

Additional observations from a re-analysis of the deposited data

How the results depend on the processing

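No paired analysis was possible because the labels give no replicate numbers shared between groups. Of the settings tried on the members' log2 fold changes, 664 values kept their direction and side of the threshold, 61 turned direction, 13 passed where the reported fit did not and 15 lost their call. The cause was not tested in any case.

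With no filter on low counts, edgeR called 44 genes for 6% EtOH and 736 for 10% EtOH at 10 weeks, 51 for 6% EtOH and 407 for 10% EtOH after cessation, 60 and 585 between doses at 10 weeks and after cessation, and 88 and 385 for the differences of the 6% and 10% EtOH effects. DESeq2 called 73 for 10% EtOH at 10 weeks, 1 for 6% EtOH after cessation, 1 between doses after cessation and 2 for the difference of the 10% EtOH effect. The fit of 9 libraries called 1059 for 10% EtOH at 10 weeks. In these fits 1 member, Gpx4, passed for 10% EtOH at 10 weeks. Leaving out a library gave 0 to 191 genes for 10% EtOH after cessation, the highest without control cessation replicate 2. For cessation against 10 weeks it gave 850 genes (without 10% EtOH cessation replicate 3) to 5811 (without control cessation replicate 2) and 1 to 4 members. Without the 2 libraries of lowest Gpx5 it was 466 genes and 0 members; 4 members passed with no filter and in DESeq2, and 1 with library totals and in limma voom.

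Outside the fits that left out 1 library, values that turned direction lay between -0.13 and 0.073. Library totals in place of TMM moved the median of all genes by -0.11 for 10% EtOH against control at 10 weeks, -0.11 for 10% against 6% EtOH after cessation and 0.10 for cessation against 10 weeks, and by less in the other comparisons. At 10 weeks for 10% EtOH, with library totals, Gpx1 was -0.051 and Gpx8 -0.013. There Gpx7 was 0.014 with RLE factors, 0.013 with no filter and 0.013 in DESeq2; it was also above 0 with the 20 most abundant genes left out (0.0089) and 9 libraries (0.0056), and 0.0037 with length and GC trends removed, where Gpx8 was -0.13. For 10% EtOH after cessation, library totals gave Gpx3 -0.044, Gpx4 -0.046, Gpx7 -0.018 and Gpx8 -0.021; leaving out the 2 libraries of lowest Gpx5 gave Gpx1 0.0096, Gpx4 -0.037, Gpx7 -0.0084 and Gpx8 -0.036, and removing length and GC trends gave Gpx8 -0.034. For cessation against 10 weeks Gpx4 was 0.073 with library totals, 0.041 without the 2 libraries and 0.039 with the trends removed. The difference of the 10% EtOH effect on Gpx5 was 0.0012 with library totals and 0.032 in limma voom.

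Leaving out each library in turn gave, at 10 weeks, -0.054 to 0.17 for Gpx7 at 6% EtOH, and at 10% EtOH -0.036 to 0.11 for Gpx1 and -0.24 to 0.21 for Gpx7. After cessation at 6% EtOH it gave -0.23 to 0.51 for Gpx5, -0.073 to 0.47 for Gpx6, -0.35 to 0.51 for Gpx3, -0.024 to 0.22 for Gpx1, -0.24 to 0.052 for Gpx4, -0.081 to 0.30 for Gpx7 and -0.20 to 0.020 for Gpx8. After cessation at 10% EtOH it gave -0.23 to 0.47 for Gpx3, -0.23 to 0.0093 for Gpx1, -0.088 to 0.17 for Gpx4, -0.091 to 0.29 for Gpx7 and -0.036 to 0.15 for Gpx8. It gave -0.0084 to 0.12 for Gpx5 between doses at 10 weeks, -0.071 to 0.017 for Gpx4 between times, and -0.52 to 0.21 and -0.33 to 0.34 for the difference of the 6% and 10% EtOH effects on Gpx5. Depth limits Gpx7 most, with 92 to 237 reads per library.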
